A study of Mus musculus with 36 samples.

Results

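Chemokines are small secreted proteins that direct the movement of leukocytes, and 36 mouse genes of the system, mostly ligands with 5 receptors, were followed through a xenograft study of diet and oral cancer. They were taken from a list by gene symbol, and where a gene had several probe sets the brightest on average was used. The annotation used here lists a probe set for 33 of the 36, out of 17097 genes in all, and Cxcl3, Ccr7 and Cxcr4 had none. Of the 33, 30 passed the filter on low levels (a mean of at least 5.19 log2), out of 12823 genes that did. The ligand Ccl12 and the receptors Ccr1 and Cxcr2 stayed under it, between 3.78 and 4.97 log2 on every array, so that Ccr2 was the 1 receptor tested.

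Cells labelled as the neural fraction of tumour stroma were taken from human oral carcinomas growing orthotopically in NSG mice, a NOD-SCID gamma strain that lacks T, B and natural killer cells, and their RNA was read on 36 Affymetrix mouse arrays. The tumours came from the established line SCC25 or from oral carcinoma cells labelled VDH15, carrying a non-targeting shRNA (PLKO) or an shRNA against the fatty acid receptor CD36 (shCD36), which acts in the human tumour cells and not in the mouse cells measured. A first VDH15 experiment (VDH15.1) had PLKO tumours under 3 diets, control, palmitic acid-rich and oleic acid-rich, with 4 arrays each. The SCC25 experiment and a second VDH15 experiment (VDH15.2) each had PLKO and shCD36 tumours on the control and palmitate-rich diets, with 3 arrays per group. Each of the 11 groups is 1 labelled biological replicate and its arrays are labelled technical replicates, so tests used 1 average per group, and the 3 experiments served as replicates. The p-values therefore measure the spread between these averages, and what lies behind 1 average is not stated further. Age, sex and the number of mice behind a group are not given in the sources used here. The deposited values had been adjusted for hybridization batch, which follows the experiment, for scan batch and for cell line, so levels are compared only within an experiment. VDH15.1 was read in 2 scan batches, so its arrays had also been adjusted within the experiment, which bears on their spread.

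The ligands differ in the cells they call. Cxcl1, Cxcl2, Cxcl3 and Cxcl5 attract neutrophils through the receptor Cxcr2, and their genes respond quickly to NF-kB, the transcription factor of interleukin 1 and tumour necrosis factor signalling. Cxcl9, Cxcl10 and Cxcl11 are induced by interferons and attract T and natural killer cells through Cxcr3, cells that NSG mice do not have. Cxcl12 and Cxcl14 are made constitutively by stroma or epithelium, and Cxcl12 holds Cxcr4-bearing cells in tissues. Ccl2 and Ccl7 draw monocytes through Ccr2, and Ccl8 is listed here in the same monocyte-attracting role. Ccl20, made largely by epithelium, draws Ccr6-bearing dendritic cells and lymphocytes.

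Promoter windows describe the regulatory sequence of a part of these genes. RefSeq windows on GRCm38.p6, 250 bases before to 50 after the annotated start, matched 25 of the 36 members. Cxcl5, Cxcl11, Cxcl16, Cxcl17, Ccl2, Ccl4, Ccl5, Ccl7, Ccl11, Ccl24 and Ccr7 had no window, so their promoters were not searched. The windows were searched on both strands for the NF-kB consensus and for GAAANNGAAA, the core of the interferon-stimulated response element. The NF-kB consensus was found in 8.46% of all 32851 windows of this length and in 7 of the 25: Cxcl1, Cxcl2, Cxcl3, Cxcl10, Ccl9, Ccl20 and Ccr1. The interferon element core was found in 3.44% of all windows and in 3 of the 25: Cxcl10, Cxcl14 and Ccl19. The windows printed are those of 2 neutrophil-attracting ligands, the interferon-induced Cxcl10 and the epithelial ligand Ccl20, whose values differed in different ways between groups. Each runs 5′ to 3′ in the direction of the gene, and capitals mark NF-kB matches (with overlapping matches joined) and, at the first capitals in Cxcl10, the interferon element core.
Cxcl1 (chr5:90890995-90891294, plus strand): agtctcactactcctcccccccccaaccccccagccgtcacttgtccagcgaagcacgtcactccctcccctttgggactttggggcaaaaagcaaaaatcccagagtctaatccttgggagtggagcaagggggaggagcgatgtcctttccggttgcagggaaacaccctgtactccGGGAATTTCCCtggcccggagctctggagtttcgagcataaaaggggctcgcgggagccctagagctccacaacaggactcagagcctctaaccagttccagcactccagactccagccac
Cxcl2 (chr5:90903649-90903948, plus strand): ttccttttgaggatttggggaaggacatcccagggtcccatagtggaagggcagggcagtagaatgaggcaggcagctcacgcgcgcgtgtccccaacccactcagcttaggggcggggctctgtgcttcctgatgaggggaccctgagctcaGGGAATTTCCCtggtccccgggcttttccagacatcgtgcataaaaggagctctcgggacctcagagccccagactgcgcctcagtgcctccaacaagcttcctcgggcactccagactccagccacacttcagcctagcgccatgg
Cxcl10 (chr5:92348840-92349139, minus strand): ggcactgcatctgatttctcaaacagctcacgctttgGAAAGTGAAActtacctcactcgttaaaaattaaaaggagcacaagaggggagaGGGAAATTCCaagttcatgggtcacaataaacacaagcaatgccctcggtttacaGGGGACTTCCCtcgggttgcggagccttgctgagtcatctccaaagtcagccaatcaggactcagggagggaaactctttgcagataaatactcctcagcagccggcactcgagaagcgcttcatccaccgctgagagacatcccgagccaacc
Ccl20 (chr1:83116516-83116815, plus strand): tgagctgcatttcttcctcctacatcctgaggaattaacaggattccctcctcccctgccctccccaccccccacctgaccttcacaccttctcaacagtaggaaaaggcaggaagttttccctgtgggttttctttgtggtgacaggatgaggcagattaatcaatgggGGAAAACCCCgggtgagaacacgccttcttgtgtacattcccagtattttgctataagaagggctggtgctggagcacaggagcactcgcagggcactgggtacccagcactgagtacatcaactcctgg
Cxcl1 and Cxcl2 held the same 10 letters, GGGAATTTCC, beginning at -71 and -97 from the start, and Cxcl3, which had no probe set, held them at -73. Cxcl10 held NF-kB matches in 2 places, beginning at -159 and -104, and GAAAGTGAAA at -213. In Ccl20 the match lay on the opposite strand, and neither motif was found in the windows of Cxcl9 and Cxcl12. A match is a description of the letters and not a measured binding site.

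Markers checked the labelled cell type. Of the Schwann cell and glia markers, 5 of 6 measured passed the filter (Erbb3, Ngfr, L1cam, Sox10 and Mbp) and S100b did not. The keratins Krt5 and Krt14 read at least 12.1 log2 on every array, so signal of epithelial genes was present throughout. The tumours were human, and whether this signal came from mouse or human cells was not tested. Of 7 measured T, B and natural killer markers 4 stayed under the filter, and none of the 3 tested changed in any of the 5 contrasts. In PLKO tumours markers of the labelled type and of other cells differed with the palmitate-rich diet. Of 5 tested Schwann cell and glia markers 1 fell and 4 lay below 0, with a median log2 difference of -0.0903. Fibroblast markers rose in 3 of 6 (median log2 difference 1.75), endothelial markers in 3 of 6 (1.59) and macrophage markers in 2 of 10 (0.777), while 2 of 7 epithelial markers fell, Krt4 by 1.95 and Krt13 by 1.23. In bulk RNA, fewer cells of a type and less RNA per cell cannot be told apart. On the first principal component of all probe sets (38.7% of the variance), 3 arrays stood apart, PLKO palmitate arrays 1 and 2 of VDH15.1 and array 1 of VDH15.2, with scores of at least 60.6 against at most 31.8 on the others. The last of these had the highest level of its group for 22 of 30 members.

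The first comparison asks what the palmitate-rich diet did in PLKO tumours, where 3 experiments hold both groups. Of 30 members, 4 rose: the neutrophil attractants Cxcl5 (3.3-fold) and Cxcl1 (1.4-fold), the interferon-induced Cxcl9 (1.93-fold) and the stromal Cxcl12 (2.24-fold). The epithelial ligand Ccl20 fell, 1.86-fold lower. Over all 12823 genes, 3.65% rose and 3.27% fell at the same threshold, an adjusted p under 0.05 in limma. Differences were above 0 for 21 of 30 members, with a median of 0.193 log2 against -0.0325 over all genes.

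**Figure D1:**
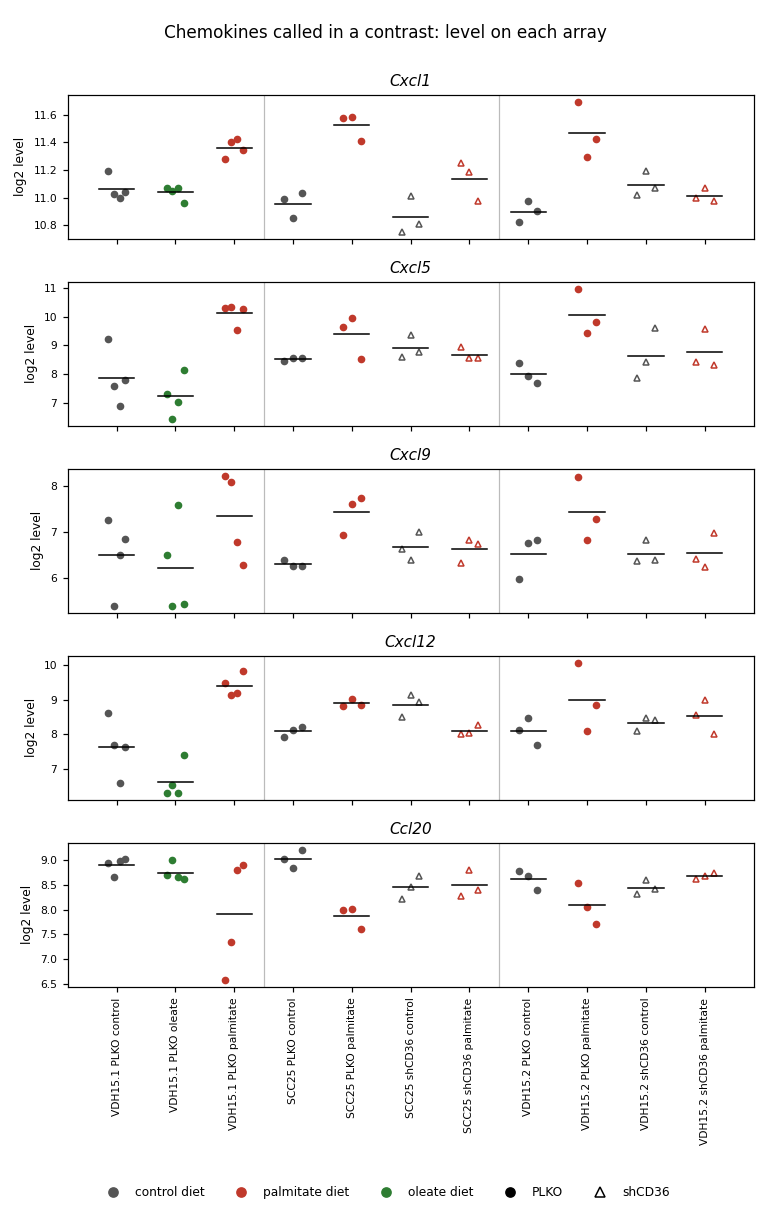
Log2 level of the 5 chemokines called in a tested contrast, on every array of the 11 groups; each point is 1 array, bars are group means, filled circles are PLKO and open triangles shCD36, and grey lines part the experiments. Palmitate PLKO arrays (red circles) lie high for Cxcl1 in all 3 experiments, while Cxcl9 and Ccl20 arrays overlap between diets in VDH15.1.

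Cxcl5, a neutrophil attractant that epithelium and fibroblasts make, had the largest of these changes. In VDH15.1 the control arrays read 9.21, 7.57, 6.90 and 7.81, the oleate arrays 7.29, 6.42, 7.04 and 8.14 and the palmitate arrays 10.30, 10.33, 9.53 and 10.28 log2. In VDH15.2 the PLKO arrays read 8.39, 7.92 and 7.70 on control and 10.98, 9.42 and 9.81 on palmitate. Palmitate arrays of both VDH15 experiments lay above every control array. In SCC25 the control arrays read 8.44, 8.55 and 8.54 and the palmitate arrays 9.65, 9.95 and 8.54, and 1 palmitate array fell among the controls. The difference was 1.72 ± 0.25 log2 (SE, n = 3 experiments; adjusted p = 0.0213). With shCD36 the group means were 8.90 ± 0.40 (control) and 8.67 ± 0.22 (palmitate) in SCC25, and 8.63 ± 0.90 and 8.77 ± 0.70 in VDH15.2 (SD over 3 arrays), and the arrays overlapped between diets in both.

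Cxcl1, whose window carries the NF-kB match printed above, changed by less but without overlap. In VDH15.1 it read 11.19, 11.03, 10.996 and 11.04 on control, 11.07, 11.05, 11.07 and 10.96 on oleate and 11.28, 11.40, 11.42 and 11.35 on palmitate. The SCC25 PLKO arrays read 10.99, 10.85 and 11.03 on control and 11.58, 11.59 and 11.41 on palmitate, and those of VDH15.2 10.82, 10.97 and 10.90 and 11.70, 11.29 and 11.43. Every palmitate array was above every control array of its experiment, and the oleate arrays overlapped the controls. The difference was 0.48 ± 0.10 (adjusted p = 0.0381). Under shCD36 the SCC25 arrays read 10.75, 11.01 and 10.81 on control and 11.25, 11.19 and 10.97 on palmitate, and the VDH15.2 arrays 11.02, 11.19 and 11.07 and 10.997, 11.07 and 10.98, with overlap in both experiments.

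Cxcl2, which shares the printed letters and is the neutrophil attractant with the highest signal, differed by 0.49 ± 0.13 and did not pass (adjusted p = 0.0736). Its VDH15.1 means were 11.41 ± 0.06 on control, 11.40 ± 0.04 on oleate and 11.54 ± 0.13 on palmitate (SD over 4 arrays), which overlapped. In SCC25 the PLKO means were 11.16 ± 0.09 and 11.73 ± 0.15 on control and palmitate, and the shCD36 means 11.23 ± 0.20 and 11.58 ± 0.06; in VDH15.2 they were 11.13 ± 0.06 and 11.90 ± 0.18, and 11.34 ± 0.03 and 11.34 ± 0.08. Palmitate arrays lay above all control arrays in SCC25 with either shRNA and in VDH15.2 with PLKO, and overlapped them in VDH15.2 with shCD36. Cxcl15, a lung and mucosal ligand, differed by -0.0033 with an SE of 0.059. None of 7 tested neutrophil markers, S100a8 and S100a9 among them, changed beside these ligands, and their median difference was 0.087. Within VDH15.1, however, all 7 lay above 0 (median 0.332), and the mean of the 10 measured spanned 5.84 to 6.41 on palmitate against 5.54 to 5.76 on control. In SCC25 PLKO 2 of these 7 markers lay above 0 (median -0.0975), and likewise 2 in VDH15.2 PLKO (median -0.0502). Their part in the Cxcl5 and Cxcl1 differences was not tested.

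The interferon-induced ligands, neighbours on chromosome 5, did not move as 1 group. Cxcl9 rose by 0.95 ± 0.09 (adjusted p = 0.00955), with the group means 0.84, 1.11 and 0.90 apart in VDH15.1, SCC25 and VDH15.2. Cxcl10 differed by -0.03 ± 0.28 and Cxcl11 by -1.05 ± 0.72 (adjusted p = 0.963 and 0.405).

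For Cxcl9 the VDH15.1 arrays read 7.25, 5.41, 6.49 and 6.85 on control, 6.49, 5.39, 7.58 and 5.44 on oleate and 8.22, 8.07, 6.78 and 6.29 on palmitate. The SCC25 PLKO arrays read 6.40, 6.26 and 6.27 on control and 6.93, 7.60 and 7.73 on palmitate, and the VDH15.2 PLKO arrays 5.98, 6.76 and 6.84 and 8.17, 6.83 and 7.29. Diets were separated without overlap in SCC25 only among these 3 experiments. The higher VDH15.1 palmitate arrays are those 2 that stood apart, and without them the VDH15.1 difference was 0.03 in place of 0.84. With shCD36 the SCC25 arrays read 6.63, 6.38 and 6.99 on control and 6.33, 6.83 and 6.75 on palmitate, and the VDH15.2 arrays 6.37, 6.84 and 6.38 and 6.41, 6.25 and 6.97.

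Cxcl10, the member with the highest mean signal in this role, went different ways. In VDH15.1 it read 11.91, 11.90, 11.96 and 11.90 on control, 11.65, 11.66, 11.60 and 11.65 on oleate and 11.38, 11.49, 11.72 and 11.71 on palmitate, and the arrays of both other diets lay below every control array. In SCC25 it read 11.31, 11.39 and 11.38 on control and 11.57, 11.57 and 11.53 on palmitate in PLKO, with every palmitate array higher. The VDH15.2 PLKO arrays read 11.93, 12.10 and 11.99 and 12.35, 11.91 and 11.93 and overlapped. Cxcl11, described in full because of its size and chosen after its values were seen, was lowest on the palmitate arrays of VDH15.1, which read 5.32, 5.49, 6.39 and 6.08 against 8.71, 8.53, 8.33 and 8.15 on control and 7.97, 8.03, 7.95 and 7.93 on oleate. Its second, dimmer probe set differed there by -0.83 against -2.61 for the one used. The SCC25 PLKO means were 6.56 ± 0.21 and 6.39 ± 0.10 and those of VDH15.2 7.96 ± 0.27 and 7.58 ± 1.11, with overlap in both.

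Of 7 homeostatic and tissue ligands 1 rose, Cxcl12. Its VDH15.1 arrays read 8.61, 7.70, 6.61 and 7.63 on control, 6.32, 6.53, 6.30 and 7.40 on oleate and 9.47, 9.14, 9.20 and 9.83 on palmitate. The SCC25 PLKO arrays read 7.93, 8.12 and 8.21 on control and 8.81, 9.02 and 8.86 on palmitate, and the VDH15.2 PLKO arrays 8.12, 8.48 and 7.69 and 10.08, 8.10 and 8.85. Palmitate was higher without overlap in VDH15.1 and SCC25, while in VDH15.2 array 1 stood far above the other palmitate arrays and 1 of these lay within the control range. The difference was 1.16 ± 0.23 (adjusted p = 0.0375), and the other 2 probe sets of the gene gave 1.28 and 0.54. Fibroblast markers were also higher on palmitate in PLKO. The mean level of all 8 measured ones spanned 8.76 to 9.16 on VDH15.1 control arrays and 9.38 to 10.03 on palmitate, and 8.25 to 8.55 against 10.15 to 10.33 in SCC25 PLKO. In VDH15.2 PLKO, where Cxcl12 overlapped, it spanned 8.74 to 9.05 against 9.51 to 10.18. With shCD36 its group means on control and palmitate were 9.45 and 8.89 in SCC25, and 9.30 and 9.03 in VDH15.2. The part of the fibroblast markers in the Cxcl12 difference was not tested.

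With shCD36, Cxcl12 read 8.51, 9.13 and 8.93 on control and 8.004, 8.04 and 8.27 on palmitate in SCC25, every palmitate array being lower, and 8.09, 8.46 and 8.42 and 8.56, 8.999 and 8.004 in VDH15.2. Ccl19, which guides dendritic cells through Ccr7, differed by 0.67 ± 0.16 in PLKO and did not pass (adjusted p = 0.0572). Cxcl14, an epithelial and stromal ligand, had the highest signal of this role and went opposite ways in the VDH15 experiments. Its means were 9.12 ± 0.11 on control, 8.88 ± 0.23 on oleate and 10.53 ± 0.27 on palmitate in VDH15.1, and 10.28 ± 0.11 and 9.18 ± 0.35 in VDH15.2 PLKO. Neither pair of control and palmitate arrays overlapped. In SCC25 PLKO it was 9.82 ± 0.01 on control and 9.997 ± 0.17 on palmitate, and with shCD36 10.52 ± 0.12 and 9.86 ± 0.20 there and 10.38 ± 0.25 and 10.34 ± 0.12 in VDH15.2. The remaining 4 of this role, Cxcl13, Cxcl17, Ccl25 and Ccl28, lay between -0.07 and 0.09.

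The tested ligands of the monocyte-attracting role all lay above 0 in each experiment, and none of the 3 passed. Ccl7 differed by 1.02 ± 0.28 (adjusted p = 0.0751), Ccl8 by 0.87 ± 0.26 (0.0906) and Ccl2 by 0.46 ± 0.20 (0.199). For Ccl2 the VDH15.1 arrays read 11.43, 11.40, 11.31 and 11.46 on control, 11.32, 11.32, 11.22 and 11.37 on oleate and 11.64, 11.62, 11.61 and 11.65 on palmitate. The SCC25 PLKO arrays read 11.01, 11.01 and 11.02 on control and 11.59, 11.65 and 11.68 on palmitate, and the VDH15.2 PLKO arrays 11.33, 11.65 and 11.35 and 12.42, 11.70 and 11.78. Thus Ccl2 was higher on every palmitate array than on any control array of its experiment, as were Cxcl1 and Ccl8. These 3 of 30 members compare with 5.72% of all genes higher without overlap in each of the 3 experiments, and with 0 members and 5.12% of genes lower.

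Ccl8 read 8.30, 7.53, 7.40 and 7.32 on control, 6.95, 7.03, 7.34 and 7.77 on oleate and 9.17, 8.61, 8.89 and 8.60 on palmitate in VDH15.1. It read 7.87, 8.12 and 7.98 and 8.67, 8.92 and 8.998 on control and palmitate in SCC25 PLKO, and 7.91, 7.74 and 7.61 and 8.34, 8.14 and 8.41 in VDH15.2 PLKO. Ccl7 means were 7.74 ± 0.43 on control, 7.15 ± 0.26 on oleate and 8.93 ± 0.32 on palmitate in VDH15.1, 7.46 ± 0.05 and 8.63 ± 0.10 in SCC25 PLKO, and 8.28 ± 0.20 and 8.96 ± 0.57 in VDH15.2 PLKO. Its palmitate arrays overlapped the controls in VDH15.2 only, of the 3 experiments. Macrophage markers were above 0 in 10 of 10, and Cd14 (1.24 log2) and Mrc1 (1.85) rose. Their part in the differences of the ligands of this role was not tested.

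None of 5 inflammatory CC ligands passed. Ccl9, a myeloid chemokine, came nearest at 0.45 ± 0.11 (adjusted p = 0.0535), while its dimmer probe set gave -0.07. Its means were 6.25 ± 0.11 on control, 6.14 ± 0.24 on oleate and 6.85 ± 0.44 on palmitate in VDH15.1. In SCC25 they were 6.47 ± 0.16 and 6.74 ± 0.09 with PLKO and 6.76 ± 0.07 and 6.65 ± 0.19 with shCD36, and in VDH15.2 6.24 ± 0.14, 6.74 ± 0.75, 6.72 ± 0.33 and 6.92 ± 0.32 in the same order. The VDH15.2 PLKO palmitate arrays read 6.54, 6.11 and 7.56 and overlapped the controls. Ccl6 differed by 1.05 ± 0.38, of which 2.01 was in VDH15.1 and 0.08 in SCC25. Ccl5 differed by 0.32 ± 0.60, Ccl3 by 0.22 ± 0.15 and Ccl4 by -0.0001 with an SE of 0.29.

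Ccl20 alone of the 30 fell. In VDH15.1 it read 8.95, 8.67, 8.98 and 9.02 on control, 8.70, 8.99, 8.66 and 8.61 on oleate and 6.57, 7.34, 8.80 and 8.90 on palmitate. The SCC25 PLKO arrays read 9.03, 8.84 and 9.21 on control and 7.99, 8.02 and 7.61 on palmitate, and the VDH15.2 PLKO arrays 8.78, 8.67 and 8.40 and 8.54, 8.04 and 7.71. SCC25 separated the diets without overlap, and the 2 low arrays of VDH15.1 are those that stood apart. The difference was -0.89 ± 0.13 (adjusted p = 0.0206), and the VDH15.1 part of it went from -0.999 to -0.05 without those arrays. The mean level of 7 epithelial markers spanned 9.52 to 11.44 on VDH15.1 palmitate arrays against 11.40 to 11.79 on controls. In SCC25 PLKO it spanned 10.75 to 10.86 against 11.21 to 11.27, and in VDH15.2 PLKO 10.44 to 11.09 against 11.12 to 11.19. Single markers above 0 numbered 1, 3 and 2 of 7 in VDH15.1, SCC25 and VDH15.2. The part of these markers in the Ccl20 difference was not tested. With shCD36, Ccl20 read 8.21, 8.45 and 8.68 on control and 8.27, 8.79 and 8.39 on palmitate in SCC25, and 8.31, 8.60 and 8.42 and 8.62, 8.67 and 8.74 in VDH15.2, where every palmitate array was higher.

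The other members of the eosinophil and T cell attracting role were Ccl11, or eotaxin, at 0.84 ± 0.31, and Ccl17, Ccl22 and Ccl24 within 0.04 of 0. The membrane-bound ligands Cx3cl1, or fractalkine, and Cxcl16 differed by 0.44 ± 0.16 and -0.09 ± 0.11. Cxcl16, the brighter, had means of 11.64 ± 0.04 on control, 11.54 ± 0.04 on oleate and 11.24 ± 0.29 on palmitate in VDH15.1. In SCC25 it had 11.38 ± 0.03 and 11.42 ± 0.03 with PLKO and 11.48 ± 0.04 and 11.54 ± 0.05 with shCD36, and in VDH15.2 11.44 ± 0.09, 11.52 ± 0.06, 11.42 ± 0.11 and 11.44 ± 0.03. The receptor Ccr2 stayed between 5.94 ± 0.07 and 6.12 ± 0.08 within SCC25, where its PLKO control mean was 6.09 ± 0.05 and its shCD36 control mean 6.08 ± 0.08. Its means were 6.03 ± 0.06, 6.01 ± 0.02 and 6.03 ± 0.05 on control, oleate and palmitate in VDH15.1, and 6.08 ± 0.05, 6.02 ± 0.07, 6.11 ± 0.18 and 6.02 ± 0.03 in VDH15.2. These Ccr2 values come from the brightest of its 4 probe sets, with a mean of 6.05 log2 over all arrays. The other Ccr2 probe sets had means of 4.01, 4.11 and 3.50, under the filter on low levels. The Ccr2 values thus rest on 1 probe set near the array medians (5.98 to 6.04 log2 over all probe sets). Whether the receptor was expressed was not tested.

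Among other genes of the chemokine system, 2 of 12 tested rose, the platelet chemokine Pf4 (0.44 ± 0.10, adjusted p = 0.0456) and the scavenging receptor Ackr3 (0.58 ± 0.11, adjusted p = 0.0367), which binds Cxcl12. The skin chemokine Ccl27a and the atypical receptor Ccrl2 differed by 1.277 and 1.198 without passing (adjusted p = 0.0638 and 0.106). Of 19 tested inducers of chemokines 1 rose, the cytokine Il6 (1.39 ± 0.26, adjusted p = 0.034). Csf3, Myd88 and Csf2 followed by unadjusted p, at 0.24, -0.35 and 0.85, and did not pass.

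Without the 3 arrays that stood apart, 2 of the 5 calls held, Cxcl5 and Cxcl1, while Cxcl9 came to 0.56 (adjusted p = 0.113), Cxcl12 to 1.02 (0.0879) and Ccl20 to -0.65 (0.101). Leaving out VDH15.1 left 1 call, Cxcl9, among 224 genes. With SCC25 or VDH15.2 left out 0 of all genes passed, and the differences were 2.15 and 1.55 for Cxcl5, 0.437 and 0.434 for Cxcl1, 0.871 and 0.973 for Cxcl9, 1.34 and 1.29 for Cxcl12, and -0.76 and -1.08 for Ccl20. In fits on single arrays Cxcl9 did not pass, with an adjusted p of 0.0776 with duplicateCorrelation and of 0.0597 and 0.0614 on the VDH15 arrays without and with a replicate block. Within the 2 scan batches of VDH15.1 the signs held for all 5: Cxcl5 differed by 2.24 in both, Cxcl1 by 0.22 and 0.38, Cxcl9 by 0.38 and 1.30, Cxcl12 by 2.04 and 1.51, and Ccl20 by -1.23 and -0.77.

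Counted by experiment, members higher on palmitate without overlap of arrays numbered 14 of 30 in VDH15.1 (all genes 17.2%), 10 in SCC25 (15.4%) and 6 in VDH15.2 (14.9%). Lower members numbered 3 (23.1%), 3 (19.7%) and 1 (17.1%). The 10 in SCC25 included Cxcl2, Cxcl9, Cxcl10, Cxcl12, Ccl7, Ccl19 and Ccl11, and Cxcl14 was the 1 lower member in VDH15.2. Without the array that stood apart there, 7 members were higher and 6 lower in VDH15.2 (all genes 18.4% and 21.5%), Cxcl10, Cxcl11, Ccl4, Ccl20 and Ccr2 joining the lower ones. With a single biological replicate per group these counts carry no test.

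**Figure D2:**
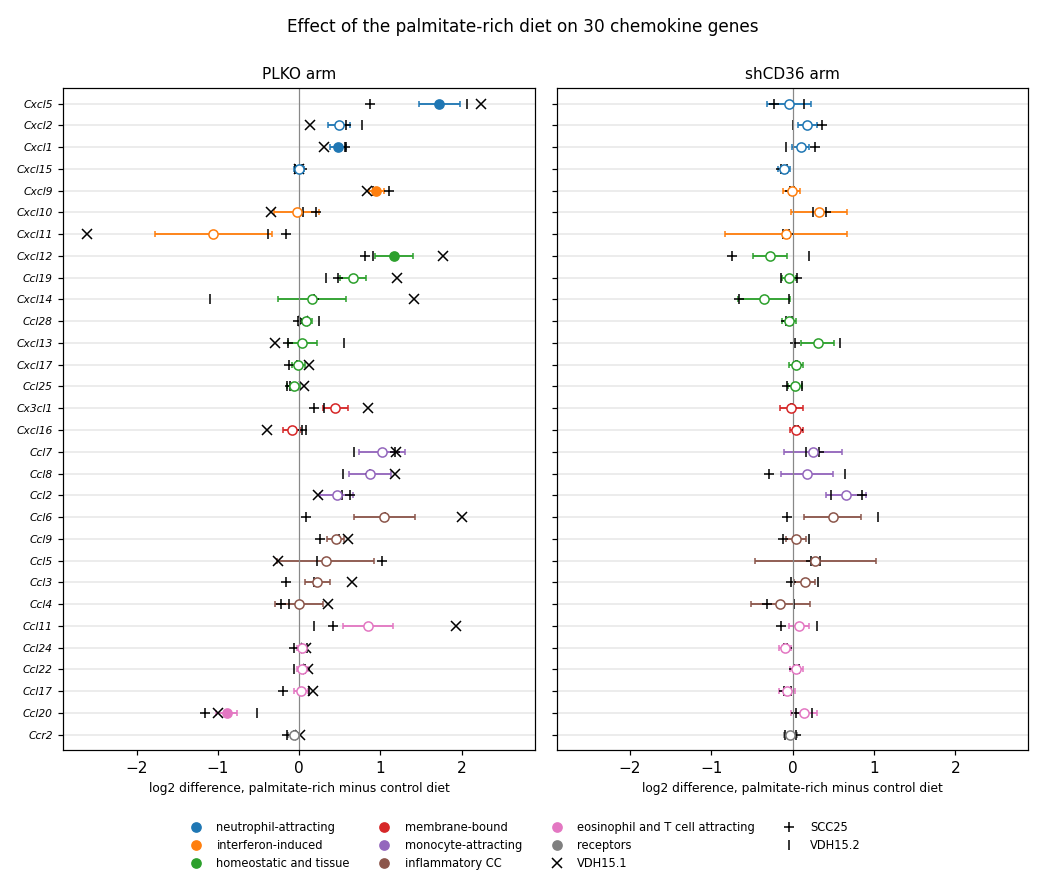
Log2 difference between the palmitate-rich and the control diet for 30 members, in PLKO tumours (left, n = 3 experiments) and shCD36 tumours (right, n = 2); circles are the limma estimate with its SE, filled where the adjusted p is under 0.05, and black marks are the experiments. In the PLKO panel Cxcl5, Cxcl1, Cxcl9 and Cxcl12 are filled on the higher side of 0 and Ccl20 on the lower, and in the shCD36 panel no circle is filled.

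In shCD36 tumours the same diet comparison, over SCC25 and VDH15.2, gave 0 calls among 30 members and among all genes (0%) in limma. At an unadjusted p under 0.05 there were 1 member and 478 genes, and 0 members passed in the 13 alternative settings. Ccl2 was that member, 0.66 ± 0.24 higher (adjusted p = 1). Its SCC25 arrays read 10.62, 10.92 and 10.56 on control and 11.54, 11.67 and 11.44 on palmitate, and its VDH15.2 arrays 10.61, 10.43 and 10.50 and 10.97, 10.85 and 11.11, with every palmitate array higher. Cxcl10 was likewise higher on all palmitate arrays, with 11.30, 11.29 and 11.51 against 11.77, 11.86 and 11.70 in SCC25 and 10.97, 10.86 and 10.79 against 11.22, 11.08 and 11.05 in VDH15.2. These 2 members stand beside 2.14% of all genes higher in both experiments, and 0 members beside 1.34% lower.

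The members that were called in PLKO had shCD36 differences of -0.04 ± 0.27 (Cxcl5), 0.10 ± 0.11 (Cxcl1), -0.01 ± 0.10 (Cxcl9), -0.28 ± 0.21 (Cxcl12) and 0.14 ± 0.16 (Ccl20). Whether the diet effect differed between the shRNAs was tested by the interaction, shCD36 minus PLKO, which used PLKO arrays of the comparison above. It passed for 0 of 30 members, against 0.0312% of all genes, and 7 members had an unadjusted p under 0.05. These were Cxcl9 (-1.02 ± 0.15, adjusted p = 0.0859), Ccl20 (0.97 ± 0.23, 0.168), Cxcl5 (-1.51 ± 0.38, 0.195), Cxcl12 (-1.14 ± 0.30, 0.203), Ccl19 (-0.45 ± 0.12, 0.217), Cxcl1 (-0.47 ± 0.15, 0.257) and Cxcl2 (-0.49 ± 0.16, 0.276). These p-values do not show that the arms responded alike. Of 6 tested fibroblast markers 0 passed in the interaction, all 6 lay below 0 with a median of -2.65, and their part was not tested.

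By experiment in shCD36 tumours, 3 members were higher on palmitate and 5 lower in SCC25 (all genes 14.6% and 8.13%), and 6 higher and 0 lower in VDH15.2 (8.03% and 12.3%). Cxcl12 and Cxcl14 were among the lower ones in SCC25, by -0.75 and -0.67. In VDH15.2 Ccl3, Ccl11, Ccl20 and Ccl25 joined Cxcl10 and Ccl2, by at most 0.32 for the first-named 4.

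The next comparison sets shCD36 against PLKO tumours on the same diet. On the control diet 0 of 30 members and 0 genes (0%) passed in limma, with 2 members and 504 genes at an unadjusted p under 0.05. The 2 were Ccl9 at 0.38 ± 0.12 and Ccl2 at -0.62 ± 0.24. Ccl9 and Ccl28, a mucosal ligand, were higher with shCD36 on every array in both experiments (1.39% of all genes), and Ccl2 was lower (2.08%). The dimmer probe sets did not show this shift in VDH15.2. There Ccl9 differed by 0.48 on the probe set used and by -0.02 on the other. Ccl28 differed by 0.23 on the one used and by -0.02 and -0.002 on the others. Ccl28 means on control were 7.31 ± 0.01 with PLKO and 7.42 ± 0.16 with shCD36 in SCC25, and 7.16 ± 0.14 and 7.39 ± 0.09 in VDH15.2, a shift of 0.11 and 0.23. On palmitate its means were 7.29 ± 0.07 and 7.34 ± 0.09, and 7.40 ± 0.09 and 7.39 ± 0.07, and in VDH15.1 7.27 ± 0.11, 7.32 ± 0.11 and 7.31 ± 0.15 on control, oleate and palmitate.

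On the palmitate-rich diet, Cxcl9 fell with shCD36, by 0.84 on the log2 scale (SE 0.10, adjusted p = 0.0384), and was the 1 of 30 members to pass. Over all genes 0.616% rose and 0.281% fell. Its PLKO palmitate arrays are those that entered the diet comparison above, so both calls share them. Of the VDH15.2 arrays, PLKO and shCD36 overlapped, and without the array that stood apart the overall difference was -0.65 (adjusted p = 0.116). With SCC25 or VDH15.2 left out the difference was -0.871 or -0.716. Each group is then 1 average assumed to vary like the other groups, and 0 of all genes passed. On the arrays of the VDH15 experiments alone it did not pass either (adjusted p = 0.065, and 0.0966 with the replicate number as a block). Postn, a fibroblast marker, fell in the same contrast by 1.95, and 6 of 6 fibroblast and 6 of 6 endothelial markers lay below 0. Their part in the Cxcl9 difference was not tested.

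Cxcl1 and Ccl7 were lower with shCD36 on the palmitate diet without overlap in both experiments (6.19% of all genes), and Ccl20 was higher (7.19%). None passed, with Cxcl1 at -0.42 ± 0.11 (adjusted p = 0.115), Ccl7 at -1.10 ± 0.36 (0.175) and Ccl20 at 0.60 ± 0.16 (0.13). Ccl7 arrays read 8.57, 8.75 and 8.59 with PLKO and 7.97, 8.27 and 7.83 with shCD36 in SCC25, and 9.54, 8.40 and 8.94 and 7.38, 7.17 and 7.55 in VDH15.2. On the control diet the Ccl7 means with shCD36 were 7.69 ± 0.19 in SCC25 and 7.20 ± 0.07 in VDH15.2. Cxcl5 differed by -1.003 ± 0.27 (adjusted p = 0.13), its arrays overlapping in both experiments. Il6 differed by -1.54 (adjusted p = 0.0956) and Ccrl2 by -1.92 (0.116).

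Within VDH15.2 a block of ligands was far lower with shCD36 on both diets. Cxcl10, Cxcl11, Ccl2, Ccl4, Ccl5 and Ccl7 were lower without overlap on the control diet and again on the palmitate-rich diet. Lower members numbered 7 of 30 on the control diet (all genes 9.94%) and 11 on palmitate (19%). Higher members numbered 4 (10.2%) and 3 (20.5%). In SCC25, 2 were lower and 11 higher on the control diet (18% and 13.1%), and 7 lower and 6 higher on palmitate (12.5% and 16.3%). The groups rest on 1 biological replicate each, so these differences are described and not tested.

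**Figure D3:**
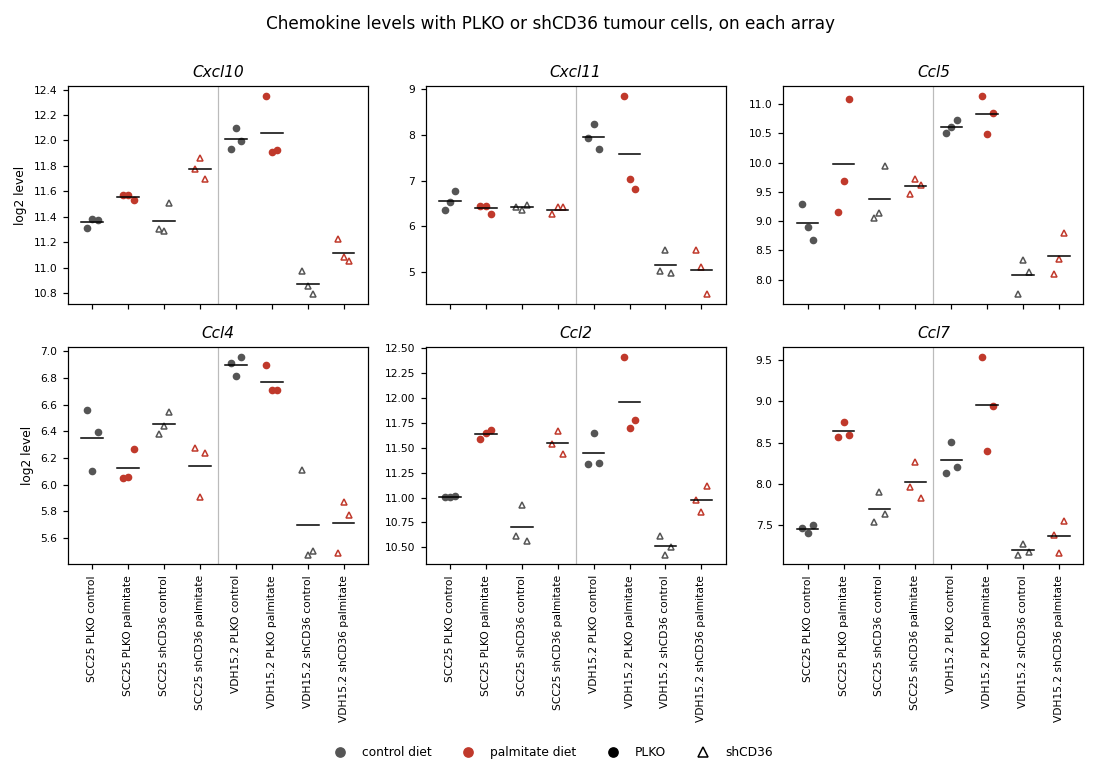
Log2 level of 6 ligands on every array of the SCC25 (left of the grey line) and VDH15.2 (right) experiments; each point is 1 array, bars are group means, filled circles are PLKO and open triangles shCD36. In VDH15.2 all triangles lie below all circles for each ligand, which is not so in SCC25 for any of the 6.

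Cxcl11 in VDH15.2 read 7.95, 8.24 and 7.70 with PLKO and 5.02, 5.48 and 4.99 with shCD36 on control, and 8.86, 7.05 and 6.83 and 5.49, 5.12 and 4.52 on palmitate. In SCC25 its shCD36 means were 6.42 ± 0.06 and 6.37 ± 0.09, -0.14 and -0.03 from PLKO. The dimmer Cxcl11 probe set gave -0.63 and -0.89 in VDH15.2, against -2.80 and -2.53. Ccl5, or RANTES, was the brightest inflammatory CC ligand and read 10.50, 10.61 and 10.72 with PLKO and 7.76, 8.33 and 8.13 with shCD36 on control, and 11.14, 10.49 and 10.85 and 8.09, 8.35 and 8.79 on palmitate. In SCC25 it read 9.30, 8.91 and 8.68 and 9.06, 9.14 and 9.93 on control and 9.16, 9.68 and 11.08 and 9.47, 9.72 and 9.61 on palmitate, all overlapping, and in VDH15.1 its means were 10.22 ± 0.08, 9.88 ± 0.09 and 9.96 ± 0.34 on control, oleate and palmitate.

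Cxcl10 was -1.13 and -0.94 from PLKO in VDH15.2 on the control and palmitate diets, where SCC25 had 0.01 and 0.22. Ccl4, an inflammatory CC ligand, was -1.20 and -1.06, Ccl2 -0.93 and -0.99, and Ccl7 -1.09 and -1.59. Cxcl9, which lies beside Cxcl10 and Cxcl11, differed by 0.0044 and -0.89 with overlap on both diets, and Ccl8, of the same chromosome 11 cluster as Ccl2 and Ccl7, by 0.67 (overlapping) and 0.77 (higher without overlap). Ccl8 with shCD36 read 9.13, 7.60 and 8.55 and 8.69, 9.49 and 9.03 in VDH15.2 and 8.61, 8.25 and 8.62 and 8.03, 8.30 and 8.26 in SCC25 on control and palmitate.

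Of 19 tested inducers in VDH15.2, 7 were lower and 3 higher with shCD36 without overlap on the control diet (all genes 9.94% and 10.2%). On palmitate 10 were lower and 1 higher (all genes 19% and 20.5%). The values of 2 of the lower inducers, chosen after they were seen, are given here. In VDH15.2 the type I interferon gene Ifnb1 was -2.54 and -1.51 from PLKO and the cytokine gene Tnf -0.61 and -0.79 on the control and palmitate diets, without overlap of arrays. Their part in the ligand differences was not tested. The mean of 13 measured macrophage markers overlapped between the shRNAs there, at 5.81 to 6.02 with PLKO and 5.72 to 6.12 with shCD36 on control, and 6.09 to 7.17 and 6.11 to 6.58 on palmitate. Neutrophil markers were lower with shCD36 on the control diet, at 5.37 to 5.61 against 5.83 to 6.10, but not on palmitate, at 6.004 to 6.30 against 5.72 to 6.07.

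The oleate-rich diet was given in VDH15.1 alone, in which it shares the control arrays with the palmitate-rich diet. On oleate 3 of 30 members were higher without overlap, Cx3cl1 (0.44), Ccl17 (0.20) and Ccl24 (0.15), beside 6.54% of all genes. Lower without overlap were 4, Cxcl11 (-0.46), Ccl5 (-0.34), Cxcl10 (-0.28) and Cxcl16 (-0.10), beside 9.06%. The interferon-induced Cxcl10 and Cxcl11 thus lay below the control arrays on both diets, Cxcl11 by far more on palmitate (-2.61). Cxcl12, Cxcl5 and Ccl7 had oleate means under the control, by -0.999, -0.65 and -0.59, with overlapping arrays, where palmitate gave 1.77, 2.24 and 1.19.

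Set directly against each other, palmitate exceeded oleate without overlap for 14 members (15.9% of all genes) and lay below it for 1, Cxcl11 (-2.15, beside 20.5%). Among the 14, the widest gaps were those of Cxcl5 (2.89), Cxcl12 (2.77), Ccl6 (2.21), Ccl11 and Ccl7 (both 1.78). Endothelial markers were higher without overlap on oleate than on control in 5 of 6, fibroblast markers were higher in 0 and lower in 1 of 6. On palmitate against oleate 6 of 6 fibroblast markers (median 0.998) and 8 of 10 macrophage markers (1.41) were higher without overlap, and the part of these markers in the ligand values was not tested.

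**Figure D4:**
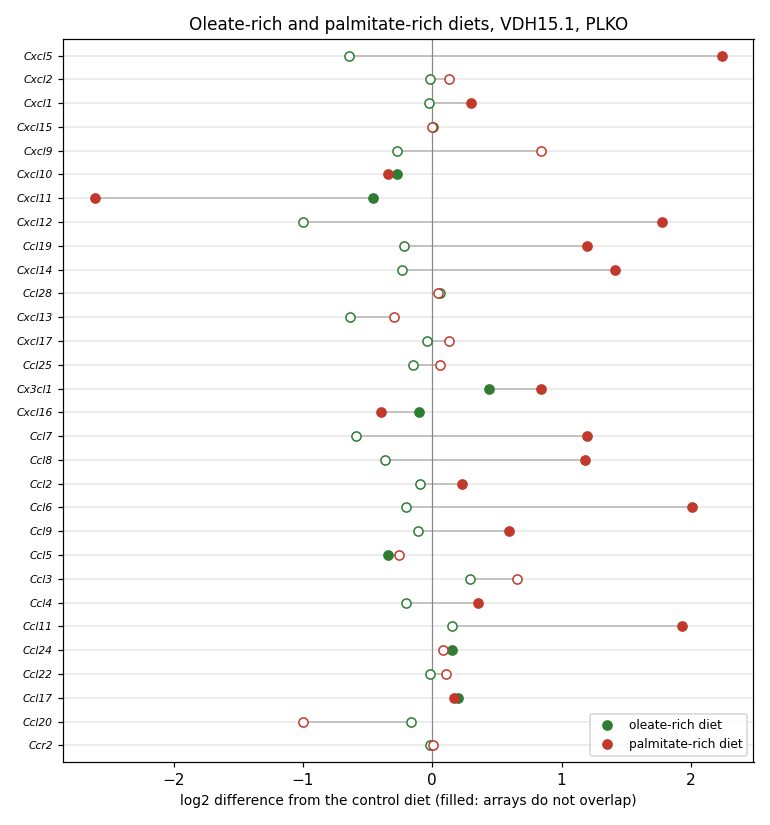
Log2 difference of the oleate-rich (green) and palmitate-rich (red) diets from the shared control arrays in VDH15.1, for 30 members; circles are differences of means over 4 arrays, filled where the arrays do not overlap, and grey lines join the diets of a gene. Cxcl5, Cxcl12 and Ccl7 lie left of 0 on oleate and right of 0 on palmitate, and Cxcl11 lies left of 0 on both.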

How the data were processed

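Per the submitters' processing notes, the authors made the deposited log2 values with RMA (affy), for which versions are not given in the sources used here. With diet and shRNA in the model, coefficients of hybridization batch, scan batch and cell line were under 0.000001 for 100% of 45141 probe sets (0.00222% without them), so these 3 factors had been adjusted for in the values as deposited. The arrays' number limits the precision.

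Arrays of a group were averaged, and genes under the lowest 25% of mean levels were left out. The diet contrast in PLKO used limma 3.58.1 (R 4.3.3) on 11 averages and the other 4 contrasts on 8, with condition and experiment as terms and Benjamini-Hochberg adjustment over 12823 genes. Oleate and single experiments were described by differences of means and overlap of arrays. Members, lists and tests were chosen with earlier results of these data known. Named in full were called members, those without overlap in every experiment, and the brightest of each role. The fits were run on simulated averages with independent noise, no experiment effects and no arrays that stood apart. That check therefore does not cover arrays like the 3 that stood apart here. Alternatives covered filter, probe sets, centring, variance prior, experiment term, array-level fits, arrays apart and each experiment left out.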

Additional observations from a re-analysis of the deposited data

Results flagged for a closer look

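In the 4-array groups of VDH15.1, 8 of 90 tests found a highest or lowest array far from its group, at a threshold that chance passes about 1 in 20 times. The tests share the same arrays and are not independent. The share of all genes flagged in this way was not computed, so the count is not a result particular to these members. The highest control array stood off for Cxcl2 (11.5 log2), Cxcl15 (6.317), Cxcl10 (11.96) and Ccl24 (6.179), and the highest palmitate array for Ccl25 (6.121) and Ccl9 (7.502). The lowest palmitate array stood off for Cxcl5 (9.529) and the lowest oleate array for Cxcl10 (11.6).

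For 7 genes the arrays of 2 experiments separated in opposite directions under the same contrast, and these differences were not tested. The share of all genes that did so was not computed, so the count is not a result particular to these members. For palmitate over control in PLKO, Cxcl10 differed by -0.3426 in VDH15.1 and 0.2007 in SCC25, Cxcl14 by 1.409 in VDH15.1 and -1.102 in VDH15.2, and Ccl17 by 0.164 in VDH15.1 and -0.204 in SCC25. For the same diets in shCD36, Ccl11 differed by -0.1449 in SCC25 and 0.2941 in VDH15.2. For shCD36 over PLKO on the control diet, Ccl7 differed by 0.2351 in SCC25 and -1.085 in VDH15.2. On the palmitate-rich diet Cxcl10 differed by 0.2185 and -0.943, Cxcl16 by 0.1248 and -0.08066, and Ccl8 by -0.6656 and 0.7709 in the same order.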

How the results depend on the processing

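No tested difference of a called member reversed under the alternatives run. Among described differences, leaving out the arrays that stood apart turned Cxcl10 in the VDH15.2 PLKO diet comparison from 0.05 to -0.09, Cxcl12 in VDH15.2 shCD36 over PLKO on palmitate from -0.49 to 0.05, and Ccl20 in VDH15.1 palmitate over oleate from -0.84 to 0.11. For palmitate over control in PLKO, 5 members (887 genes) were called, against 11 (3001) with no experiment term, 2 (599) without the 3 arrays that stood apart, 13 (3052) on arrays with duplicateCorrelation, 0 (34) on the averages of the contrast alone, and 0 to 1 (0 to 224) with 1 experiment left out. For shCD36 over PLKO on the palmitate-rich diet, 1 member (115 genes) was called, against 3 (941), 0 (1) and 7 (2157) in the first-named 3 settings, 1 (48) on all 11 averages and 0 (0) with an experiment left out. The interaction, with 0 members (4 genes), gave 1 (306) with no experiment term and 3 (1167) with duplicateCorrelation. shCD36 over PLKO on the control diet gave 0 members and 47 genes with duplicateCorrelation, 4 genes with no experiment term and 2 with a variance trend, and palmitate in shCD36 gave 0 members and 51 genes with duplicateCorrelation. Array-level fits treat technical replicates as samples.

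On arrays of the VDH15 experiments, the fit with a replicate block called 14 members (4886 genes) for the diet in PLKO, 5 (70) and 11 (2925) for shCD36 on the control and palmitate-rich diets, 3 (1011) for the interaction and 0 (108) for the diet in shCD36. Without the block these were 15 (5212), 5 (85), 11 (3203), 3 (1224) and 0 (162). Replicate numbers do not pair the arrays: same-number deviations correlated between -0.12 and 0.34 in VDH15.1 and between -0.3 and 0.3 in VDH15.2, and 3 of 12 arrays in each correlated best with their own number.

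Members without overlap in the VDH15.2 PLKO diet comparison numbered 7 (6 higher, 1 lower), and 13 (7 higher, 6 lower) without the 3 arrays. Over 14 alternatives Cxcl5 lay between 1.47 and 2.16, Cxcl1 between 0.417 and 0.572, Cxcl9 between 0.558 and 1.01, Cxcl12 between 0.859 and 1.4, and Ccl20 between -1.08 and -0.649. The cause of these changes was not tested.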
